A study of Mus musculus with 6 samples.

Results

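The miR-7 family was followed in small RNA libraries of mouse oligodendrocyte progenitor cells (OPCs), the cells that divide in the brain and mature into the oligodendrocytes that form myelin. The family was taken by name as the arms of miR-7a and miR-7b in the miRNA table, and 5 such rows were found of 1506 in all: miR-7a-5p, miR-7b-5p, miR-7a-1-3p, miR-7a-2-3p and miR-7b-3p. The question was whether their levels differ between control OPCs and OPCs exposed to fibrinogen, the plasma protein that forms blood clots and that enters the brain when its vessels leak. All 6 libraries came from wild-type C57BL/6 cells of newborn cortex. By the study's methods, these grew with the growth factors bFGF and EGF and were shaken off flasks that held glia. They were later collected as cell balls and digested with trypsin. Of the libraries, 3 came from controls and 3 from cells given 2.5 mg/mL fibrinogen. The labels call the first group control, the study's methods name vehicle for it, and the length of treatment is not given in the sources used here. Libraries of each group are numbered by mouse from 1 to 3, and nothing says whether a number stands for 1 animal, a pool or a separate culture, so a p-value here measures only the spread between these libraries.

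A miRNA precursor is a hairpin whose stem is cut into a 5p and a 3p arm, one of which usually stays bound to an Argonaute protein and guides it to messages that pair with its seed, bases 2 to 8. miR-7 is conserved across bilaterian animals, is abundant in the hypothalamus, pituitary and pancreatic islets, and was reported to favour the production of OPCs from neural progenitors by repressing the neuronal factors Pax6 and NeuroD4. In the brain its level is known to depend on a small network of RNAs: the circular RNA Cdr1as, which carries many miR-7 sites, the long non-coding RNA Cyrano, which directs the destruction of miR-7, and miR-671, which directs the cutting of Cdr1as.

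All 5 arms had a RefSeq mature sequence. They are shown because the family splits by seed, which stands in capitals, written from the 5′ end:
miR-7a-5p: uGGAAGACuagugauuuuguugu
miR-7b-5p: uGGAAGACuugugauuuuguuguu
miR-7a-1-3p: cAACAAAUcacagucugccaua
miR-7a-2-3p: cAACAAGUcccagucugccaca
miR-7b-3p: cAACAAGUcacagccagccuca
Both 5p arms have the seed GGAAGAC, which no other of the 1679 RefSeq mouse mature miRNAs has. Counted from the 5′ end, they differ by 1 substitution over 23 bases, A10U from miR-7a-5p to miR-7b-5p, outside the seed. The 3p arms have another seed, and A7G from miR-7a-1-3p to miR-7a-2-3p lies within it, so that miR-7a-2-3p shares its seed AACAAGU with miR-7b-3p and not with the other arm of miR-7a.

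These arms come from 3 precursors on 3 chromosomes (RefSeq, GRCm38.p6). Mir7-1 lies at chr13:58392779-58392886 on the minus strand, and by the GENCODE annotation it sits in an intron of Hnrnpk, a gene for an RNA-binding protein, on the same strand. Mir7-2 lies at chr7:78888277-78888373 on the plus strand and overlaps an exon of the long non-coding RNA Gm57212. Mir7b lies at chr17:56242988-56243098 on the plus strand and overlaps no other annotated gene. Mir7-1 and Mir7-2 give the same miR-7a-5p, so its row cannot be divided between them, while each 3p arm comes from 1 precursor.

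The values are called TPM but are RPM, reads scaled to the total of a library with no correction for length, and the mature arms differ in length by at most 1.09-fold. Whole reads could be recovered from them, 11897645 to 14847034 per library, with 1 read worth 0.0669 to 0.0841 TPM. The 10 most abundant miRNAs took 65.5% to 68.5% of a library. Pearson correlations of log2(TPM + 1) across miRNAs, which are not independent replicates, ran from 0.987 to 0.990 within groups and from 0.974 to 0.987 between groups. The oligodendrocyte miRNA miR-338-3p was present in every library, at 1950 to 3137 TPM, and so was the neuronal miR-124-3p, at 22056 to 31833 TPM, so the cultures were not free of miRNAs of other cell types. In such bulk libraries fewer cells of a type and less RNA per cell cannot be told apart.

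In control OPCs the family took 1.40% to 1.65% of all miRNA reads, nearly all of it as the 5p arms. The order of levels was the same in all 6 libraries, and no neighbours in it overlapped: miR-7a-5p first, then miR-7b-5p, miR-7a-1-3p, miR-7a-2-3p and miR-7b-3p. The 5p arms together made up 98.8% to 99.5% of the family's TPM. miR-7a-5p ranked between 15 and 25 among the 1506 miRNAs of a library, and miR-7b-3p between 461 and 550.

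None of the 5 arms passed at an adjusted p under 0.05 from limma, where 2.8% of the 607 miRNAs tested passed, 2.14% as higher and 0.659% as lower. Both arms of miR-7b were lower in every fibrinogen-treated library than in every control library, and the other arms overlapped between groups. Groups without overlap were found for 33.1% of all miRNAs tested, 24.4% higher and 8.73% lower. The same arms, 2 of 5, had an unadjusted p under 0.05, as did 25.7% of all miRNAs tested, 20.1% higher and 5.6% lower. The members' log2 fold changes ran from -0.57 to 0.13 with a median of -0.48, where all 607 had a median of 0.13. Of the count tests on recovered reads, edgeR passed 0 of the 5 arms, where it called 8 higher and 4 lower of the 607. DESeq2 passed 1, miR-7b-5p, where it passed 10.9% of all. Median-of-ratios scaling, which brings the median of all 607 to 0.0032, gave -0.62 for miR-7a-5p, -0.70 for miR-7b-5p and -0.58 for miR-7b-3p, and none of these passed (adjusted p = 0.194, 0.122 and 0.124 from limma).

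miR-7a-5p, the dominant guide strand, had 12112, 14140 and 11731 TPM in control libraries 1, 2 and 3, and 5976, 9643 and 12751 TPM in fibrinogen-treated libraries 1, 2 and 3. Thus fibrinogen-treated library 1 stood far below every control, library 2 stood below them by less, and library 3 lay among them. The control mean was 12661 ± 1295 TPM and the treated mean 9457 ± 3391 TPM (SD over 3 libraries each), or 74.7% of it. On log2(TPM + 1) the fold change was -0.48 (standard error 0.26, 95% interval -1.09 to 0.12, adjusted p = 0.281 from limma), and the exact two-sided permutation test gave p = 0.3, where 0.1 is the smallest that 3 against 3 libraries allow. Without fibrinogen-treated library 1 the log2 fold change was -0.19, and without library 3 it was -0.73 (adjusted p = 0.518 and 0.267 from limma). Its 80052 to 175413 reads per library left little counting error, with a 95% exact Poisson interval of 5935 to 6018 TPM for treated library 1.

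miR-7b-5p, which reads the same seed, had 2232, 2315 and 2058 TPM in control libraries 1, 2 and 3. In fibrinogen-treated libraries 1, 2 and 3 it had 1098, 1558 and 1904 TPM. Every treated library was below every control, with library 1 again lowest and library 3 closest to the controls. The treated mean of 1520 ± 405 TPM was 69.0% of the control mean of 2202 ± 131 TPM (SD over 3 libraries each). The log2 fold change was -0.57 (standard error 0.20, 95% interval -1.03 to -0.11), with an unadjusted p of 0.0228 and an adjusted p of 0.150 from limma, and the exact permutation test gave p = 0.1. Of the 607 miRNAs tested, 27 had a lower fold change. A count test of the recovered reads with DESeq2 passed miR-7b-5p as lower (log2 fold change -0.69, adjusted p = 0.0180), where it passed 5.93% of all miRNAs tested as lower and 10.9% in either direction. This call was lost without fibrinogen-treated library 1 (DESeq2, -0.50, adjusted p = 0.0565), a check chosen after the data had been seen, and edgeR's quasi-likelihood test did not give it (-0.70, adjusted p = 0.135).

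**Figure D1:**
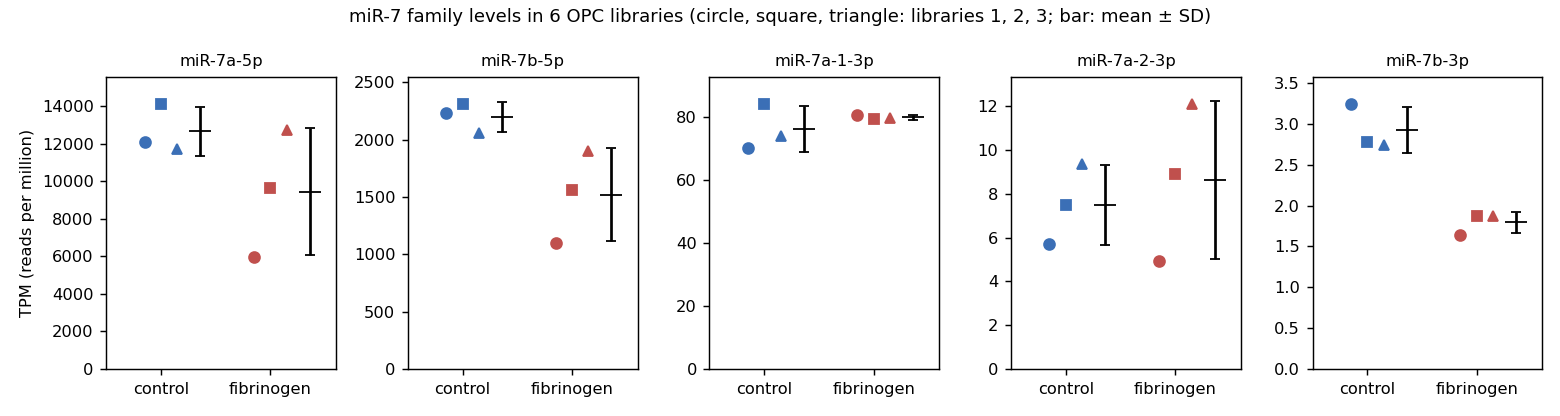
Level of each miR-7 arm in TPM (y axis, from 0, a scale per panel) in 3 control and 3 fibrinogen-treated libraries, with points for libraries and bars for mean ± SD. miR-7b-5p and miR-7b-3p do not overlap between groups, while miR-7a-5p spans 5976 to 12751 TPM in the fibrinogen-treated libraries.

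miR-7b-3p, the opposite arm of miR-7b, was rare. Controls 1, 2 and 3 had 3.25, 2.78 and 2.74 TPM, and fibrinogen-treated libraries 1, 2 and 3 had 1.64, 1.87 and 1.87 TPM. The groups did not overlap, and unlike miR-7b-5p the treated libraries lay close together. Its log2 fold change was -0.49 (standard error 0.16, 95% interval -0.86 to -0.11, unadjusted p = 0.0174, adjusted p = 0.136 from limma, exact permutation p = 0.1). As the level is near the added 1 TPM, this scale understates the change, and the means of 2.92 ± 0.281 and 1.79 ± 0.132 TPM (SD, n = 3 each) give a fold of 0.614. The values rest on 33 to 41 reads in a control and 22 to 26 reads in a treated library. At this depth single libraries are not parted: the 95% exact Poisson interval, which covers counting error only, was 1.97 to 3.72 TPM for control 3 and 1.19 to 2.81 TPM for treated library 3.

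miR-7a-1-3p, the opposite arm of the precursor in Hnrnpk, varied least of the family over the treated libraries. It had 70.1, 84.1 and 73.7 TPM in control libraries 1, 2 and 3 and 80.5, 79.2 and 79.5 TPM in the treated libraries. The treated values lay within the range of the controls and within the counting error of each other. Its log2 fold change was 0.074 with a 95% interval from -0.24 to 0.38 (standard error 0.13, adjusted p = 0.747 from limma), and this sign is not firm, since median-of-ratios scaling gave -0.058, DESeq2 -0.080 and edgeR -0.085. The 885 to 1102 reads behind each value make this the most precise estimate among the 3p arms.

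miR-7a-2-3p, the opposite arm of Mir7-2, had 5.70, 7.49 and 9.36 TPM in control libraries 1, 2 and 3. Treated libraries 1, 2 and 3 had 4.93, 8.91 and 12.1 TPM. The treated libraries thus held both the lowest and the highest value of all 6. Its log2 fold change of 0.13 (standard error 0.32, 95% interval -0.63 to 0.89, adjusted p = 0.822 from limma) changed sign with the library left out, from -0.13 without treated library 3 to 0.44 without treated library 1, and was -0.055 after quantile normalization.

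**Figure D2:**
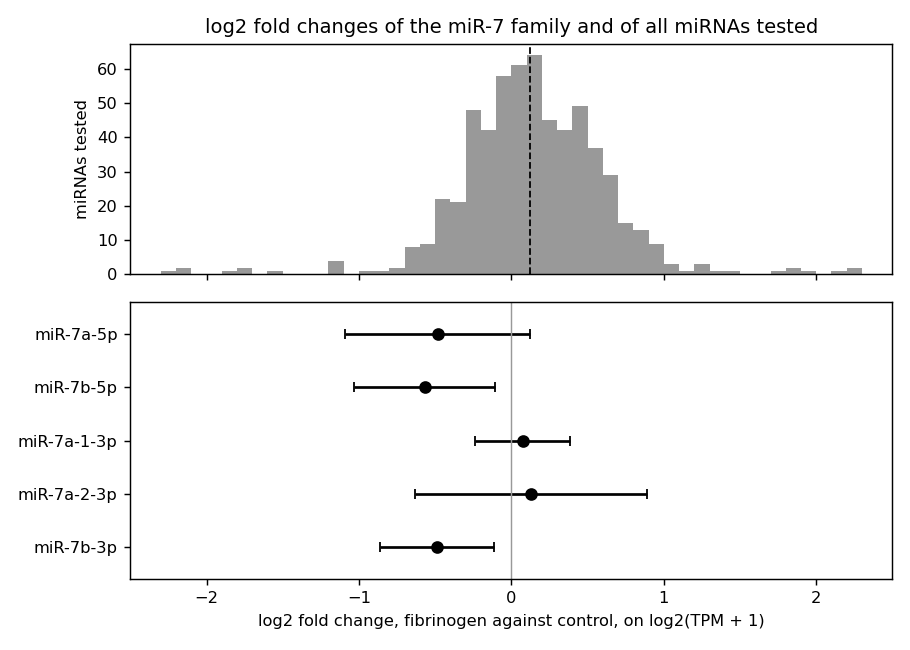
log2 fold change of fibrinogen-treated against control OPCs on log2(TPM + 1) (x axis). The upper panel counts the 607 miRNAs tested in bins of log2 fold change (y axis), with their median of 0.13 dashed and 4 miRNAs beyond the axis, and the lower panel gives each miR-7 arm with its 95% interval from limma. The intervals of miR-7b-5p and miR-7b-3p lie below 0 before adjustment, and those of the 3 arms of miR-7a include 0.

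The low values of the 5p arms were concentrated in fibrinogen-treated library 1. That library held the lowest value of all 6 libraries for 4 of the 5 arms, against 10.9% of the 607 miRNAs tested. For miR-7b-3p and miR-7a-2-3p this order lay within counting error. miR-7b-3p had 22 reads there against 26 and 23 in treated libraries 2 and 3, and miR-7a-2-3p 66 against 72 in control 1. Arms of 1 family are not independent of each other, so 4 of 5 is a description and was not tested. Relative to the mean of the controls, treated library 1 had 47.2% of miR-7a-5p, 49.8% of miR-7b-5p, 56.2% of miR-7b-3p and 65.6% of miR-7a-2-3p, but 106% of miR-7a-1-3p. In treated library 3 the corresponding values were 101%, 86.5%, 64.1%, 161% and 105%. On the log2 scale the SD of miR-7a-5p over the treated libraries was 0.55, larger than that of 96.4% of the 365 tested miRNAs whose mean reached 10 TPM, and over the control libraries it was 0.14, larger than that of 24.1% of them. For miR-7b-5p the SDs were 0.40 and 0.087, larger than those of 92.9% and 11.2%. miR-7a-2-3p had the largest SD of the family over the treated libraries, 0.58, and 0.31 over the controls, larger than those of 97.3% and 70.7%. Its own means of 7.52 and 8.66 TPM in controls and treated libraries are under 10 TPM. It is thus not one of the 365 and carries more counting error than they do. miR-7a-1-3p was at the other end over the treated libraries, with an SD of 0.012 where the median of the 365 was 0.15, but over the controls its SD was 0.13, larger than that of miR-7b-5p. For miR-7b-3p, whose level is near the added 1 TPM, the SDs were 0.069 and 0.10.

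**Figure D3:**
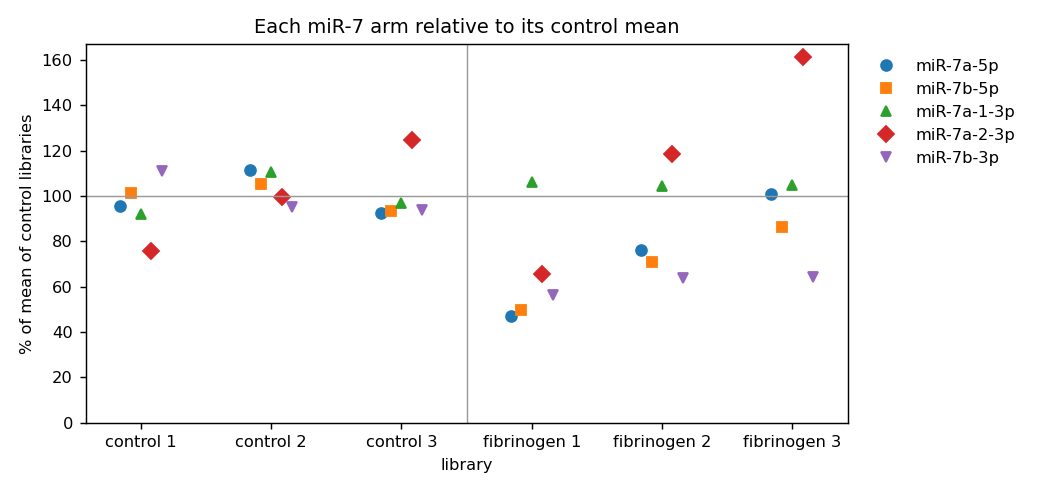
Each miR-7 arm in each library (x axis) as a percentage of its mean over the 3 control libraries (y axis), with a symbol per arm and the line at 100 marking the control mean. In fibrinogen-treated library 1 every arm but miR-7a-1-3p lies at 47.2% to 65.6%, and in treated library 3 only the arms of miR-7b lie below all 3 of their control values.

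Leaving out treated library 1 brought the log2 fold changes of miR-7a-5p and miR-7b-5p to -0.19 and -0.35, their smallest over the 6 libraries left out in turn, and leaving out treated library 3 brought them to -0.73 and -0.75, their largest. For miR-7b-3p the range was narrow, -0.52 to -0.43, but this arm rests on 22 to 41 reads per library. Its level near the added 1 TPM also compresses this scale. The fold changes of these 3 arms stayed below 0 in each of the 6 fits, with adjusted p of 0.128 to 0.518 from limma.

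**Figure D4:**
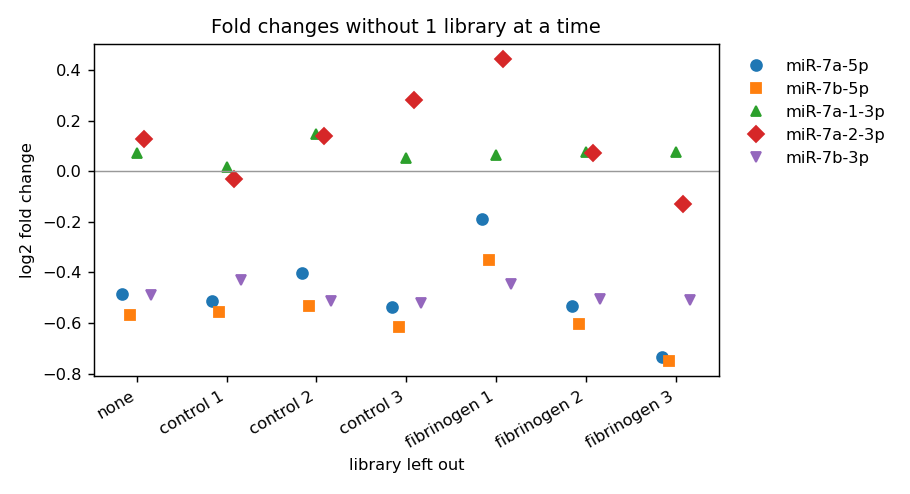
log2 fold change of each miR-7 arm (y axis) from limma with all 6 libraries (none) and without the library named on the x axis. miR-7a-5p and miR-7b-5p come closest to 0 without fibrinogen-treated library 1, at -0.19 and -0.35. miR-7b-3p stays between -0.52 and -0.43, on a scale that its low level compresses.

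Ratios of 2 arms within a library do not depend on the library total. The 5 ratios, and the summed level of the 5p arms, which does depend on it, were compared with exact two-sided permutation tests, for which 0.1 is the smallest p, and no adjusted p over these 6 comparisons was under 0.6. miR-7a-5p was 5.43, 6.11 and 5.70 times miR-7b-5p in control libraries 1, 2 and 3 and 5.44, 6.19 and 6.70 times in the treated libraries. Hence both 5p arms moved by similar factors from library to library although their precursors lie on different chromosomes, with a log2 difference of 0.086 between groups (standard error 0.10, p = 0.4 from the exact permutation test). As the arms differ by 1 base, a read with an error there could be listed for the other arm, and the mismatch setting of the counting is not given in the sources used here, so the part of such reads in these ratios was not tested.

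The ratio of miR-7a-5p to miR-7a-1-3p was 173, 168 and 159 in the controls and 74.2, 122 and 160 in treated libraries 1, 2 and 3. Treated libraries 1 and 2 lay below every control and library 3 lay within their range, so that the groups overlapped (log2 difference -0.56, standard error 0.33, exact permutation p = 0.2). The guide strand of miR-7a was thus low in treated library 1 where the opposite arm of Mir7-1 was not. Against miR-7a-2-3p the ratio was 2124, 1889 and 1253 in the controls and 1213, 1082 and 1051 in the treated libraries. These groups did not overlap (log2 difference -0.62, standard error 0.24, exact permutation p = 0.1), but control 3 and treated library 1 differed by less than the counting error of the 140 and 66 reads of miR-7a-2-3p behind them. miR-7b-5p was 688, 834 and 751 times miR-7b-3p in the controls and 668, 834 and 1017 times in the treated libraries, which overlapped (log2 difference 0.13, standard error 0.19, exact permutation p = 0.7), and this sign turned with 1 TPM added to both arms (-0.081). Between the opposite arms of the miR-7a precursors, miR-7a-1-3p was 7.87 to 12.3 times miR-7a-2-3p in the controls and 6.56 to 16.3 times in the treated libraries.

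**Figure D5:**
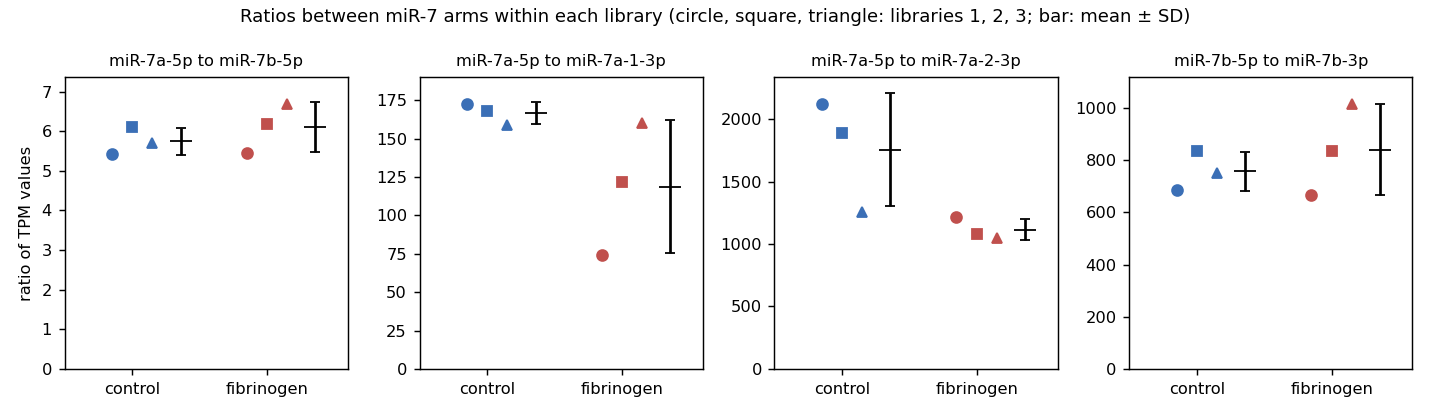
Ratio of TPM values of 2 miR-7 arms within each library (y axis, from 0, a scale per panel) in 3 control and 3 fibrinogen-treated libraries, with points for libraries and bars for mean ± SD. miR-7a-5p to miR-7b-5p stays between 5.43 and 6.70 in all 6 libraries, while miR-7a-5p to miR-7a-1-3p falls to 74.2 in fibrinogen-treated library 1.

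Since both 5p arms carry the same seed, their levels were also summed. The sum was 14344, 16455 and 13789 TPM in control libraries 1, 2 and 3 and 7074, 11201 and 14656 TPM in the treated libraries. Treated library 3 lay within the range of the controls, and treated libraries 1 and 2 lay below every control. The log2 difference of the sums was -0.50 (standard error 0.32, exact permutation p = 0.3), and without treated library 1 it was -0.21.

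Of the known partners of miR-7, the Cdr1as-cutting miR-671-5p had 21.7, 17.9 and 21.9 TPM in the controls and 71.1, 59.6 and 105 TPM in treated libraries 1, 2 and 3. It rose by 1.85 on the log2 scale (limma, standard error 0.23, adjusted p = 0.00593). This call was lost without treated library 1 or control library 2 (limma, adjusted p = 0.0512 and 0.0604, with 1.90 and 1.76). Its level was highest in treated library 3, which had the most miR-7a-5p, but lowest in library 2 and not in library 1, which had the least. A relation between them was not tested. The opposite arm of miR-671-5p, miR-671-3p, had 1.93 ± 0.641 and 3.18 ± 0.170 TPM (SD, n = 3 each) and did not pass (0.54, adjusted p = 0.175 from limma). Cdr1as and Cyrano are no miRNAs and were not analysed here. The 4 miRNAs listed for this network were miR-7a-5p, miR-7b-5p and both arms of miR-671. Of these, limma passed 1 as higher and 0 as lower, against 2.14% and 0.659% of all miRNAs tested, and 3 did not pass. DESeq2 passed 2, miR-7b-5p as lower and miR-671-5p as higher, against 10.9% of all in either direction. edgeR passed 1, miR-671-5p as higher, where it called 8 higher and 4 lower of the 607.

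Among 333 other known miRNAs whose mean reached 10 TPM, the profiles over the 6 libraries closest to miR-7a-5p were those of miR-7b-5p, miR-137-3p and miR-1298-3p. Likeness was measured as the root mean square difference of log2(TPM + 1) after each miRNA was centred on its own mean. These profiles had 0.11, 0.22 and 0.24, against a median of 0.51 and 0.41 for a flat profile. The closest to miR-7b-5p were miR-7a-5p, miR-137-3p and miR-128-3p, with 0.11, 0.18 and 0.19 against a median of 0.47 and 0.37 for a flat profile. miR-137-3p, a brain miRNA that acts in neuronal development, had 9251, 10221 and 9524 TPM in the controls and 6652, 8036 and 8884 TPM in treated libraries 1, 2 and 3. Like miR-7b-5p it was below every control in each treated library and lowest in library 1 (log2 fold change -0.31, standard error 0.12, adjusted p = 0.175 from limma). miR-128-3p, a neuronal miRNA, was lowest in that library too, at 41470 TPM. It had 45645 and 48586 TPM in treated libraries 2 and 3 and 59516 to 69466 TPM in the controls. As miR-137-3p and miR-128-3p were picked by likeness over these same 6 libraries, the shared order follows in part from the choice.

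Both of these neighbours belong to the 7 neuronal miRNAs listed as markers, whose summed level was 120495 to 128104 TPM in the controls and 97756 to 102002 TPM in the treated libraries. This sum is led by miR-128-3p, with means of 63655 ± 5181 and 45234 ± 3576 TPM in the control and treated libraries (SD, n = 3 each). A log2 fold change below 0 was found for 5 of the 7, and miR-129-5p and miR-132-3p were above 0. Of the 7, limma passed 1 as lower (miR-128-3p, adjusted p = 0.0410), where it passed 0.659% of all miRNAs tested as lower, and 0 as higher. This call was lost in each of the 6 fits that left out 1 library (adjusted p = 0.0507 to 0.181 from limma), and also without the filter on low values and with the replicate block (adjusted p = 0.128 and 0.0768 from limma). 4 of the 7 were below every control in each treated library, against 8.73% of all miRNAs tested, while miR-129-5p was above every control (log2 fold change 0.52, adjusted p = 0.119 from limma), and the median log2 fold change of the list was -0.25. At an unadjusted p under 0.05 there were 5 of the 7, against 25.7% of all. These were miR-129-5p as higher and the 4 below every control as lower, against 20.1% of all as higher and 5.6% as lower. edgeR passed 1, where it called 8 higher and 4 lower of the 607, and DESeq2 passed 4, against 10.9% of all. The most abundant beside it, miR-124-3p, had 25418 ± 5557 and 24499 ± 2112 TPM (SD, n = 3 each, log2 fold change -0.035, adjusted p = 0.921 from limma) and was at 26296 TPM in treated library 1. The part of neuronal cells in the levels of miR-7 was not tested. The neuroendocrine miR-375-3p, which shares the pituitary and the islets with miR-7, was at 3.53 to 7.36 TPM in the controls and 4.26 to 6.19 TPM in the treated libraries.

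In the other marker lists the summed level of treated library 1 lay within or above the range of the controls, except for the red blood cell list. Neither limma nor edgeR passed a member of these lists, and the counts below are to be read against 25.7% of all miRNAs tested at an unadjusted p under 0.05 and 10.9% passed by DESeq2. The 5 oligodendrocyte miRNAs, of which miR-138-5p and miR-338-3p were the most abundant, summed to 12246 to 16652 TPM in the controls and to 14340, 13440 and 11456 TPM in treated libraries 1, 2 and 3. Of these, 1 had an unadjusted p under 0.05 and was passed by DESeq2 as higher, miR-219a-2-3p, an oligodendrocyte miRNA named after its values were seen. The 6 miRNAs of microglia and other immune cells, with miR-142a-3p and miR-146a-5p the most abundant over all libraries, summed to 1766 to 2478 TPM in the controls and 2073 TPM in treated library 1. Of these, 3 had an unadjusted p under 0.05, miR-150-5p and miR-146a-5p as higher and miR-155-5p as lower. DESeq2 passed miR-150-5p as higher and, as lower, both arms of miR-142a, which were not among those 3. The 4 endothelial and mural miRNAs, with miR-126a-3p the most abundant, summed to 12809 to 16682 TPM in the controls and 17194 TPM in treated library 1, with 1 at an unadjusted p under 0.05 and 0 passed by DESeq2. The 4 red blood cell miRNAs, with miR-451a the most abundant, summed to 214 to 702 TPM in the controls, 206 TPM in treated library 1 and 177 to 206 TPM over the treated libraries. Of these, 3 had an unadjusted p under 0.05, and DESeq2 passed miR-451a and both arms of miR-144 as lower. No miRNA of these lists was at 0 in all libraries.

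Among 11 miRNAs reported in the production or maintenance of OPCs, miR-7a-5p among them, limma and edgeR passed 0 at an adjusted p under 0.05. An unadjusted p under 0.05 from limma was found for 4 of them, against 25.7% of all miRNAs tested, and DESeq2 passed 2, miR-19a-3p and miR-19b-3p, as lower, against 5.93% of all. The groups did not overlap for 4 of the 11, against 33.1% of all. Of these, miR-19a-3p and miR-19b-3p lay below every control, with log2 fold changes of -0.67 and -0.40, and miR-92a-3p and miR-125a-3p above, with 0.54 and 0.66 (adjusted p = 0.155, 0.170, 0.119 and 0.132 from limma). These 4 are named after their values were seen, and the first 3 are encoded in the growth-promoting miR-17-92 cluster. The list's median log2 fold change was 0.19, near the 0.13 of all miRNAs tested, and 4 of the 11 were below 0. By level miR-7a-5p dominated it. The next over all 6 libraries was miR-204-5p, with 446 ± 63.1 TPM in the controls and 436 ± 32.4 TPM in the treated libraries (SD, n = 3 each, log2 fold change -0.026, adjusted p = 0.942 from limma).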

How the data were processed

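Small RNA of OPCs was sequenced in 6 libraries, 3 control and 3 fibrinogen-treated. The authors filtered reads by quality, trimmed adapters (cutadapt 1.15), removed duplicates, mapped the rest (Bowtie 1.1.2) and used miRDeep2 to count miRBase miRNAs and to predict others. The paper names GRCm39 and the labels mm10. The deposited values are RPM, called TPM by the authors: reads of each miRNA scaled to a library total. They were whole multiples of 1 step per library within 0.1 reads for 99.7% to 100% of values above 0, so reads were recovered by division. miR-7a-5p, with 2 precursors, had even read numbers in 3 of 6 libraries, so its reads were not all listed once per precursor.

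The 607 miRNAs (514 known) that reached 1 TPM in 3 or more libraries, all 5 miR-7 arms among them, entered a limma fit of log2(TPM + 1) (version 3.58.1, R 4.3.3, trend, no block), with p adjusted by Benjamini-Hochberg over all 607. The fits were tried on simulated counts, with the same spread beyond counting error for every miRNA and no deviating library. That trial does not cover a library such as fibrinogen-treated library 1. Ratios used arms with at least 5 reads in every library. Alternatives were a pseudocount of 0.1 or 5, all miRNAs or those reaching 10 TPM, median-of-ratios and quantile scaling, known miRNAs only, a replicate block, edgeR 4.0.16, DESeq2 1.42.0 and each library left out. Named beside the arms were both miR-671 arms, miR-375-3p, the 3 closest profiles and up to 2 members per list with the highest mean over all libraries. Other list members were named after their values were seen, because DESeq2 passed them or their groups did not overlap. Members and lists were chosen with earlier results of these data known. Sequences are from RefSeq (GRCm38.p6), and host genes from GENCODE M39 on GRCm39.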

Additional observations from a re-analysis of the deposited data

How the results depend on the processing

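No miR-7 arm passed in any of the limma fits or with edgeR, and DESeq2 passed miR-7b-5p (-0.69, adjusted p = 0.0180). Over all miRNAs, limma called 13 higher and 4 lower. The higher were 8 without a filter, 7 at a minimum of 10 TPM, 8 with edgeR and 30 with DESeq2, and the lower were 1 among known miRNAs alone and 36 with DESeq2. DESeq2 without fibrinogen replicate 1, chosen after seeing the data, gave 7 higher and 12 lower, with -0.088 for miR-7a-1-3p. Leaving out 1 library at a time, limma called 0 to 39 higher and 0 to 6 lower.

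Over the 10 other settings that kept all libraries, log2 fold changes ran from -0.62 to -0.37 for miR-7a-5p and from -0.70 to -0.57 for miR-7b-5p, and for miR-7b-3p, with 9 of them as it was under the minimum of 10 TPM, from -0.86 to -0.22. The sign turned for miR-7a-1-3p (-0.058 with median-of-ratios scaling, -0.085 with edgeR, -0.080 with DESeq2) and miR-7a-2-3p (-0.055 with quantile normalization), and for the ratio of miR-7b-5p to miR-7b-3p with 1 TPM added (-0.081). The cause was not tested. Without 1 library, miR-7a-2-3p ran from -0.13 to 0.44, the ratio of miR-7a-1-3p to miR-7a-2-3p from -0.43 to 0.23 and that of miR-7b-5p to miR-7b-3p from -0.017 to 0.29. Median-of-ratios scaling moved the median over all 607 log2 fold changes from 0.13 to 0.0032.

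Libraries with the same number had deviations from the group means that correlated at 0.0377, 0.233 and 0.124. Pairs with different numbers had -0.195 to 0.0876. These few values do not settle whether the number pairs libraries, so the main fit without a block is given beside one with it. With the replicate block, limma called 11 higher and 4 lower, and miR-7a-5p (-0.48, adjusted p = 0.203), miR-7b-5p (-0.57, adjusted p = 0.132) and miR-7b-3p (-0.49, adjusted p = 0.201) did not pass. Depth limits miR-7b-3p and miR-7a-2-3p, with 22 to 41 and 66 to 149 reads per library.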
